A study of Mus musculus with 6 samples.

Results

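Intermediate filament genes of muscle were examined in cultured satellite cells (SCs), the stem cells of skeletal muscle, from mice with an inducible deletion of NF-YA in these cells. NF-YA is the DNA-binding regulatory subunit of NF-Y, a transcription factor that recognizes the CCAAT box. The genes were chosen by name and are Des, Vim, Nes, Synm, Sync, Plec, Krt8 and Krt18, 8 of the 35976 genes in the expression tables. All 8 were detected with more than 10 counts in each library and all were among the 17348 genes tested.

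Intermediate filaments are rope-like polymers that tie the nucleus, organelles and contractile apparatus to the cell surface. Vimentin, a type III filament protein, is typical of mesenchymal and proliferating cells, myoblasts included, and desmin is its muscle counterpart, which in mature fibers surrounds the Z-discs. Nestin and synemin are long proteins that copolymerize with vimentin or desmin, syncoilin joins desmin to the dystrophin-associated complex, and plectin is a giant cross-linker that anchors filaments to membranes, nuclei and actin. Keratins 8 and 18 form the obligate pair of simple epithelia.

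The data are RNA-seq libraries of 3 NF-YAcKO and 3 NF-YAfl/fl cultures. NF-YAcKO mice carry floxed NF-YA alleles with Pax7-CreERT2, a tamoxifen-activated recombinase made in Pax7-expressing cells, so that recombination is limited to those cells and their progeny. NF-YAfl/fl mice carry the floxed alleles without the recombinase and also received tamoxifen. The labels give an age of 5 to 7 weeks for both genotypes. SCs were enriched from hindlimb muscle by magnetic depletion of other cells and expanded in growth medium with FGF-2, and total RNA was sequenced. Total expected counts, the reads that the software RSEM assigned to genes, ranged from 31040863 to 41118984 in NF-YAcKO and from 26936230 to 33316730 in NF-YAfl/fl.

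Several facts touch all results below. All 13 terminal muscle markers analysed were called lower in NF-YAcKO, with a summed level of 56.5 to 143 TPM against 7454 to 10859 TPM. Of 12 macrophage markers 11 were tested and 10 were called higher (144 to 275 TPM against 4.44 to 17.3 TPM), and of 10 Schwann cell markers 9 were tested and 5 were called higher (37.2 to 48.1 against 27.6 to 37.1 TPM). Of 9 tested SC and myoblast markers 1 was called, lower, and their summed level overlapped (623 to 698 against 606 to 1042 TPM). Myod1 was the largest part of that sum, at 344, 360 and 367 TPM in NF-YAcKO and 240, 240 and 632 TPM in NF-YAfl/fl. Its means were 357 and 370 TPM, with NF-YAfl/fl replicate 3 alone above the NF-YAcKO libraries. Without a call, Pax7 had a log2 fold change of 0.94 (edgeR FDR = 0.00624) and Sdc4 of 0.80 (FDR = 0.00446). Vcam1 was at 0.86 (FDR = 0.0102) and Itga7 at -1.25 (FDR = 0.0116), also not called. The fibroblast list (1 of 11 tested called higher), the endothelial list (2 higher and 1 lower of 9) and the smooth muscle and pericyte list (2 lower of 9) had summed levels of 620 to 846, 8.71 to 13.0 and 672 to 1051 TPM in NF-YAcKO, and of 272 to 1269, 3.20 to 7.00 and 1100 to 1735 TPM in NF-YAfl/fl. No gene of these lists was at 0 in all libraries. Xist was at 45.5 to 54.5 TPM in NF-YAcKO and 0.02 to 0.03 TPM in NF-YAfl/fl and all 4 Y-linked genes examined were called lower in NF-YAcKO. The Methods describe male mice, and an effect of sex and an effect of genotype cannot be told apart in these libraries. Nfya as a whole gene, its deleted transcript included, was not called (log2 fold change -0.06, edgeR FDR = 0.814). The libraries are from bulk cultures, in which fewer cells of a type and less RNA per cell cannot be told apart. The part of these differences in the results was not tested.

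Des, Nes and Sync were called lower in NF-YAcKO, which required a false discovery rate (FDR) under 0.01 and a log2 fold change beyond 1 in edgeR's quasi-likelihood test. These are 3 of 8 genes, beside 7.67% of all tested genes called lower. No member was called higher by edgeR, beside 4.65% of all tested genes, although Vim, Krt8 and Krt18, the 3 genes with values above 0, each had an unadjusted p under 0.05, and DESeq2 called Krt18, while limma called none of them. In all 8 genes the NF-YAcKO libraries lay outside the range of the NF-YAfl/fl libraries in CPM (counts scaled to library size with TMM factors), in 3 above it and in 5 below. Among all tested genes 29.1% were separated upward in this way and 26.2% downward. Over the 8 genes the log2 fold change had a median of -0.88, and over all tested genes of -0.02.

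**Figure D1:**
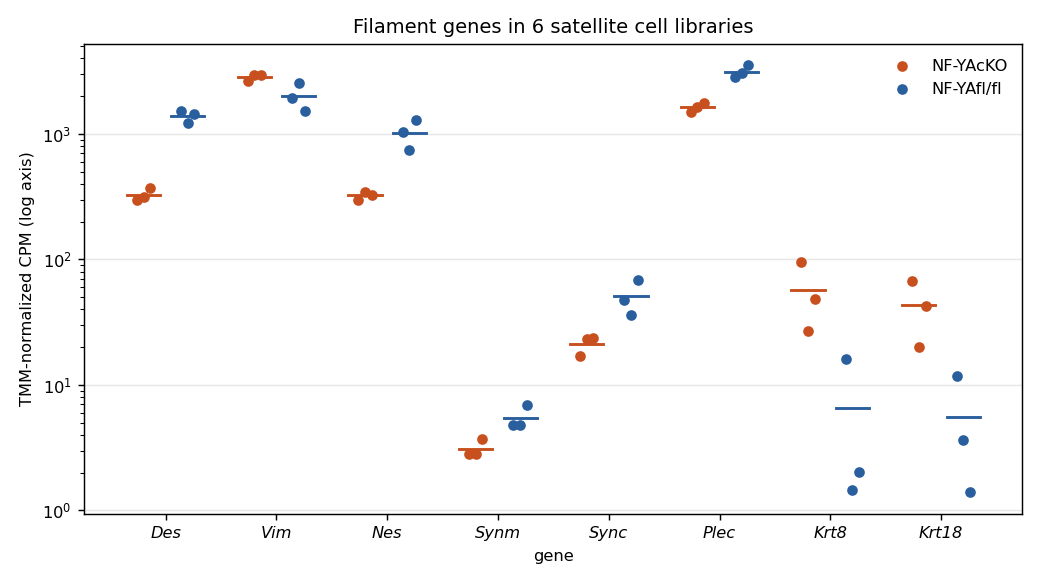
Level of each filament gene in each library as TMM-normalized CPM on a log axis, with 3 NF-YAcKO and 3 NF-YAfl/fl points a gene and a bar at each group mean. The groups do not overlap in any gene, Des, Nes, Synm, Sync and Plec are lower in NF-YAcKO, and the keratins spread most within a group.

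Desmin had the largest decrease of the 8 genes. Des (chromosome 1, 75360329 to 75368579 in GRCm38, plus strand) was at 295, 313 and 374 CPM in the NF-YAcKO libraries and at 1528, 1218 and 1429 CPM in the NF-YAfl/fl libraries. The highest NF-YAcKO library thus stayed far below the lowest NF-YAfl/fl library. The mean level was 4.25-fold higher in NF-YAfl/fl (log2 fold change -2.09, SE 0.14, edgeR FDR = 0.000218), and the call was kept by each of the 14 alternative analyses, with a log2 fold change between -2.22 and -2.02. With 9263 counts in the shallowest NF-YAcKO measurement of Des, the spread between cultures and not depth set the precision.

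Vimentin went the other way without passing the test. Vim (chromosome 2, 13573927 to 13582826, plus strand) was at 2619, 2938 and 2924 CPM in NF-YAcKO and at 1930, 2558 and 1526 CPM in NF-YAfl/fl. The NF-YAfl/fl libraries varied 1.68-fold among themselves and the NF-YAcKO libraries 1.12-fold. The log2 fold change was 0.50 (SE 0.20, edgeR FDR = 0.0876), and between 0.33 and 0.70 over the alternatives. On the deposited TPM scale the groups overlapped, with 1706 to 1925 TPM in NF-YAcKO and 852, 1299 and 2101 TPM in NF-YAfl/fl. TPM values sum to the same total in each library, of which 32.1% to 47.3% fell on genes shorter than 300 bases. The list sums and several marker genes are given in TPM and carry this limit between libraries. For the members, CPM is used to compare libraries, and TPM, which is scaled to length, to compare genes within a library.

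The balance of the type III filament genes was therefore read within each library. Des made up 6.08%, 5.76% and 6.85% of the Des plus Vim TPM in NF-YAcKO and 31.2%, 21.5% and 35.0% in NF-YAfl/fl. No library of one genotype came near the other. The means were 6.23% ± 0.560 and 29.2% ± 7.01 (SD, n = 3). A two-sided exact permutation test gave p = 0.1, the lowest value reachable with 3 libraries a genotype, and 0.2 after adjustment over the 2 ratios tested. Vim was nevertheless the most abundant of the 8 transcripts per length in every library of both genotypes, ahead of Des and Plec.

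The promoters of these genes were read for 3 motifs in the 250 bases before the RefSeq start (GRCm38.p6), because NF-Y recognizes CCAAT and the myogenic factors recognize the E-box CANNTG. Windows were found for 7 of the 8 genes, Plec being the gene without one. CCAAT, on either strand, was present in 2 of the 7 windows, those of Vim and Synm, and in 33.8% of all 32851 promoter windows of this length. CANNTG, which reads the same on both strands, was present in 5 of 7 and in 66.2% of all windows, and TATAAA on either strand in 1 of 7, that of Vim, and in 12.4% of all. A CCAAT match may overlap a CANNTG match. The 30 bases around each CCAAT match are shown on the strand of the gene, with CCAAT or its complement ATTGG in capitals.
Vim, chr2:13574103-13574132, plus strand, 196 bases before the start: ggcctagcacttCCAATtagtaacaggact
Vim, chr2:13574205-13574234, plus strand, 94 bases before the start: ttccgggtccccATTGGctggctcgctcgg
Synm, chr7:67759803-67759832, minus strand, 78 bases before the start: ggccgcgtcctgATTGGctggaggcgatgg
Both Vim matches lie before the RefSeq start but within the first exon of a longer GENCODE transcript of Vim. The second Vim match and the Synm match share a run of 9 bases that begins with ATTGG. The Des window held no CCAAT and 2 E-boxes, 220 and 36 bases before the start. The Krt8 window also held 2 E-boxes, 184 and 111 bases before the start. Those of Synm, Sync and Krt18 held 1 each, and those of Vim and Nes held none. A relation of these letters to the changes was not tested. The Des window is printed whole, with the E-boxes in capitals, as the window of the member that fell most.
Des, chr1:75360042-75360291, plus strand: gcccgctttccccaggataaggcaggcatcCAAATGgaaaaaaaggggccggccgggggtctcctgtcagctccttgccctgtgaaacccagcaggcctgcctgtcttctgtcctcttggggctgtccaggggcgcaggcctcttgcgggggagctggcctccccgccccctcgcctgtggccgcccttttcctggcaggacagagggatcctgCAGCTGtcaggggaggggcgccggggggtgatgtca
The E-box nearer the start has the letters CAGCTG, which occur in 13.0% of all windows. These matches are letters in a window and binding was not measured here.

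Among the partners that copolymerize with these filaments, nestin was called lower like desmin. Nes (chromosome 3, 87971078 to 87980451, plus strand) was at 297, 345 and 328 CPM in NF-YAcKO and at 1033, 743 and 1290.3 CPM in NF-YAfl/fl, with no overlap. It was 3.16-fold higher in NF-YAfl/fl (log2 fold change -1.66, SE 0.20, edgeR FDR = 0.00156). The call narrowly failed without NF-YAcKO replicate 2 (log2 fold change -1.75, FDR = 0.011) or replicate 3 (-1.70, FDR = 0.0101), within a range of 1.57e-12 to 0.0297 over the alternatives. Per length, there were 42.6 to 53.6 Nes transcripts per 100 Des transcripts in NF-YAcKO and 29.6 to 44.0 in NF-YAfl/fl, so that this ratio overlapped between the genotypes.

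Synemin was the scarcest of the 8 transcripts. Synm (chromosome 7, 67730160 to 67759742, minus strand) was at 2.81, 2.80 and 3.71 CPM in NF-YAcKO and at 4.78, 4.82 and 6.89 CPM in NF-YAfl/fl, from 88 to 203 counts a library. The groups were separate but close. Its log2 fold change of -0.82 (SE 0.23, edgeR FDR = 0.0298) met neither threshold. The gene has 3 transcripts in the files. NM_201639.2 was the largest in every library, with 76.7%, 50.1% and 65.5% of Synm TPM in NF-YAcKO and 72.1%, 72.5% and 71.4% in NF-YAfl/fl. The shares of the other two overlapped between the genotypes.

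Syncoilin also fell, with a call that most fits with a library left out did not keep. Sync (chromosome 4, 129287617 to 129308559, plus strand) was at 17.0, 23.2 and 23.5 CPM in NF-YAcKO and at 47.9, 36.3 and 69.1 CPM in NF-YAfl/fl. The NF-YAfl/fl libraries spanned 1.90-fold, more than for Des. The log2 fold change was -1.26 (SE 0.25, edgeR FDR = 0.00853). The call was lost in 5 of the 6 fits that left out a library, those without NF-YAcKO replicate 1, 2 or 3 (FDR = 0.0309, 0.0308 and 0.0268), without NF-YAfl/fl replicate 1 (FDR = 0.027) and without NF-YAfl/fl replicate 3 (log2 fold change -0.99), and was kept without NF-YAfl/fl replicate 2. Over all alternatives the FDR ran from 2.26e-05 to 0.405.

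**Figure D2:**
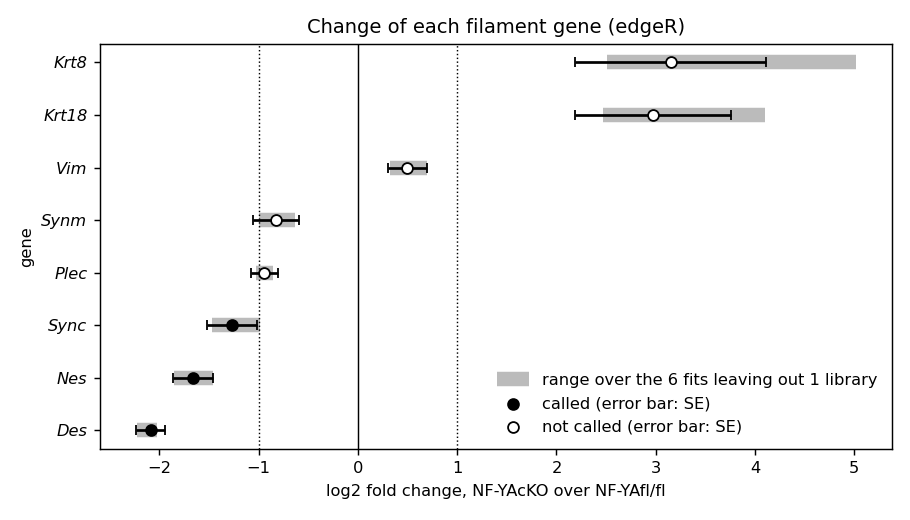
Log2 fold change of each filament gene, NF-YAcKO over NF-YAfl/fl, from edgeR, with the SE as error bar, grey bars for the range over the 6 fits that leave out 1 library, and dotted lines at -1 and 1. Filled points are called: Des at -2.09, Nes at -1.66 and Sync at -1.26, while Krt8 reaches 5.02 without NF-YAfl/fl replicate 1.

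Plectin, the cross-linker, came close to the fold threshold without a call. Plec (chromosome 15, 76170974 to 76232574, minus strand) was at 1482, 1652 and 1765 CPM in NF-YAcKO and at 2849.5, 3048 and 3516 CPM in NF-YAfl/fl. Its libraries varied less within each genotype, 1.19-fold and 1.23-fold, than those of Nes or Sync in NF-YAfl/fl. The log2 fold change was -0.94 (SE 0.14, edgeR FDR = 0.00265). It passed -1, and the call, in limma on TPM (-1.02 or -1.03 by pseudocount) and without NF-YAfl/fl replicate 1 (-1.01, FDR = 0.00874), within FDRs of 7.79e-11 to 1 over the alternatives. There were 91.6 to 102 Plec transcripts per 100 Des transcripts in NF-YAcKO and 36.2 to 48.5 in NF-YAfl/fl.

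Plec has 15 transcripts in the files, which begin with 11 different first exons. Coding bases lie in 8 of these, which give plectin different amino-terminal ends, the part known to direct it to its attachment sites. First exons that held at least 5% of Plec TPM in a library are lettered from A, the farthest upstream, to E. They lie at chr15:76231174-76231378 (A), chr15:76229358-76229497 (B), chr15:76205598-76206321 (C), chr15:76199549-76199835 (D) and chr15:76195424-76195710 (E). The first coding bases of B, C and D, which the results below turn on, are shown 5′ to 3′ with the start codon in capitals, from the GENCODE transcripts on GRCm38.
B: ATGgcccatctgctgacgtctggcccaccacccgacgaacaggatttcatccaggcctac
C: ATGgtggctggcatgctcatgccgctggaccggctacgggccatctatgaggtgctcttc
D: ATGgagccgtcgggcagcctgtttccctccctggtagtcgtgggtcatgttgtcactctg
Forms with first exon B were at 379, 426 and 492 CPM in NF-YAcKO and 1108, 817 and 1558 CPM in NF-YAfl/fl, and forms with D at 84.6, 70.6 and 94.0 CPM against 260.0, 333 and 342 CPM. Forms with C were at 490.2, 639.5 and 670.1 CPM against 744, 897 and 1111 CPM, and forms with E overlapped between the genotypes (356 to 391 against 298 to 739 CPM). Forms with A were at 86.3, 73.6 and 77.8 CPM in NF-YAcKO and 115, 123 and 86.5 CPM in NF-YAfl/fl, so that the groups nearly met. In TPM they overlapped (4.81 to 6.63 against 5.48 to 11.35 TPM). As shares of Plec TPM within a library, C was higher in NF-YAcKO (32.4% to 37.9% against 25.5% to 30.9%, not tested), as was A (4.47% to 5.90% against 2.49% to 4.09%), and D was lower (4.31% to 5.75% against 9.16% to 11.0%). The shares of B (26.0% to 28.4% against 27.2% to 45.0%) and E (20.3% to 25.8% against 8.52% to 24.4%) overlapped.

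The clearest difference among Plec forms was a small exon of 15 bases (chr15:76194559-76194573, minus strand), which lies in the coding sequence for the actin-binding domain and keeps the reading frame. It is present in 4 of the RefSeq forms. The forms NM_011117.2 and NM_201388.2 were taken to lack it from their length alone. The exon was singled out after the values were seen, so that its share is a description without a test. The exon is shown in capitals between 30 bases of each neighbouring exon, and the second line is the junction without it.
with the exon: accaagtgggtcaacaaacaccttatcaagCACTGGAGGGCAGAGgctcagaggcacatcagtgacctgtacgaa
without the exon: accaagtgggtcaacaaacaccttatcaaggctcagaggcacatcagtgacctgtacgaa
Forms with the exon made up 0.721%, 1.11% and 1.47% of Plec TPM in NF-YAcKO and 13.7%, 11.7% and 10.2% in NF-YAfl/fl. Their level was 10.9, 18.5 and 26.4 CPM against 397, 361 and 364 CPM, a ratio of means of 20.1, whereas the forms without it had a ratio of 1.71 (1470, 1633 and 1738 CPM against 2451, 2685 and 3150 CPM). The difference was seen behind both first exons that account for most of it. Among transcripts with first exon C, 1.76% to 2.70% had the exon in NF-YAcKO and 19.1% to 30.9% in NF-YAfl/fl, and among those with D it was 0% to 10.2% against 44.3% to 62.5%.

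The shares of the transcripts themselves were compared by two-sided exact permutation tests. Of the 13 transcripts of Plec, Sync and Synm that held at least 5% of their gene's TPM in a library, 6 had complete separation of the genotypes, beside 18.6% of 41353 such transcripts of all tested genes with more than 1 transcript (exact permutation p = 0.1, the smallest possible, and 0.217 after adjustment over the 13). These included the Plec forms with the small exon, NM_001163540.1 (0.800% ± 0.184 in NF-YAcKO and 6.69% ± 1.05 in NF-YAfl/fl) and NM_001163549.1 (0.303% ± 0.263 and 5.11% ± 0.710), and the form with first exon C without it, NM_201389.2 (35.0% ± 2.97 and 21.7% ± 3.76; SD, n = 3). The main Sync form, NM_023485.3, was among them too, with 70.7% ± 5.64 of Sync TPM in NF-YAcKO and 79.5% ± 0.347 in NF-YAfl/fl (SD, n = 3). The Plec forms share almost all of their sequence. Their separation therefore rests on reads over the first exons and junctions and on how RSEM divided the rest. The other 5 genes have 1 transcript each in the files.

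**Figure D3:**
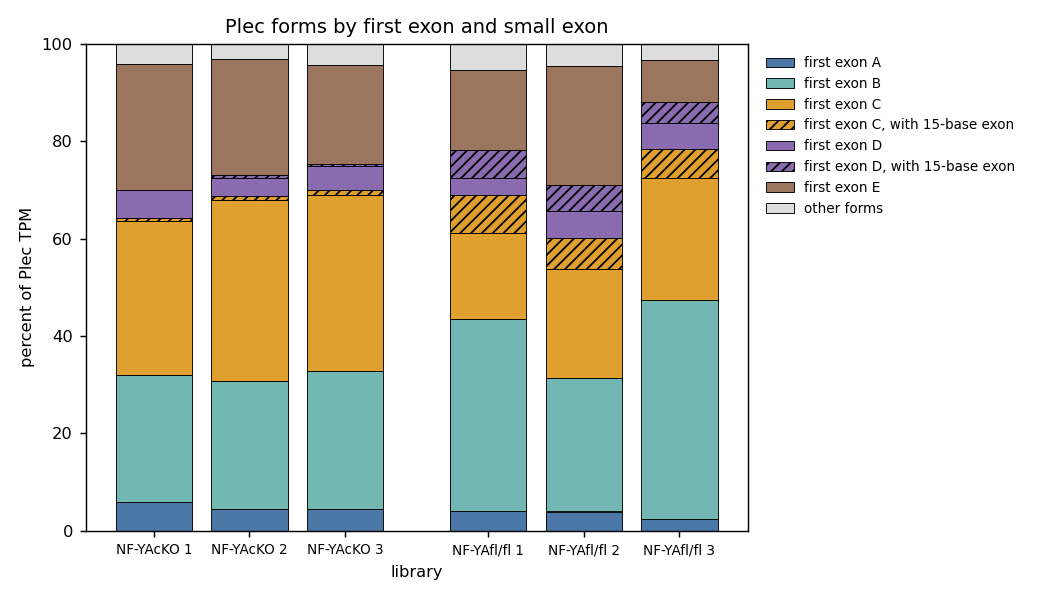
Percent of Plec TPM in each library by first exon, A at the bottom to E at the top, with forms that carry the 15-base exon hatched and the remaining forms in grey. The hatched parts together are 10.2% to 13.7% in the NF-YAfl/fl libraries and at most 1.47% in the NF-YAcKO libraries.

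The keratin genes were higher in every NF-YAcKO library than in any NF-YAfl/fl library, without a call. Krt8 (chromosome 15, 101996698 to 102004482, minus strand), the type II keratin of the pair, was at 95.7, 26.8 and 48.4 CPM in NF-YAcKO and at 16.0, 1.46 and 2.04 CPM in NF-YAfl/fl. Krt18 (chromosome 15, 102028180 to 102032027, plus strand), its type I partner and neighbour on the chromosome, was at 67.7, 20.1 and 42.8 CPM against 11.7, 3.63 and 1.39 CPM. In both genes NF-YAcKO replicate 1 was the highest of all libraries and NF-YAfl/fl replicate 1 the highest of its group, 11.0-fold above the lowest for Krt8 and 8.44-fold for Krt18.

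The log2 fold changes were 3.15 for Krt8 (SE 0.97, edgeR FDR = 0.0396) and 2.97 for Krt18 (SE 0.78, FDR = 0.0238), with the widest errors of the 8 genes. Without NF-YAfl/fl replicate 1 Krt8 was called, with a log2 fold change of 5.02 (FDR = 0.00769, in a range of 0.00454 to 0.196 over the alternatives). Krt18 moved to 4.10 without the same library, still without a call (FDR = 0.0135), and was called by DESeq2 (FDR = 0.0055, range 0.0055 to 0.13).

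The pair was close to equal per length in most libraries. The ratio of Krt8 to Krt18 TPM was 1.06, 1.0 and 0.850 in NF-YAcKO and 1.02, 0.302 and 1.10 in NF-YAfl/fl. The exception, NF-YAfl/fl replicate 2, had 49 counts of Krt8 and 122 of Krt18. The log2 ratio did not differ detectably between the genotypes (difference 0.47, exact permutation test, two-sided, p = 0.9, and 0.9 after adjustment over the 2 ratios tested), and its sign turned to -0.14 without that library. Among 9457 genes whose mean level reached 10 CPM, the gene whose profile over the 6 libraries was nearest to that of Krt8 was Krt18, and the reverse, with a root mean square difference of 0.555 on the centred log2 scale. C3 (complement C3) and Hsd11b1 came next for Krt8, at 0.971 and 1.10, and F3 (tissue factor) and Cldn4 (claudin 4) for Krt18, at 0.694 and 0.771.

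Krt8 and Krt18 are best known from simple epithelia, although keratins 8 and 19 are also present in striated muscle. The genes of other keratins and of epithelial and mesothelial cells were read beside them. Of 31 other keratins, 30 were in the files, 7 of these at 0 in all libraries, and 8 were tested. Krt23 was called higher, from 17 to 50 counts in NF-YAcKO and 0 or 1 in NF-YAfl/fl. None of the 6 fits with a library left out called it. Krt7, a partner of Krt18 and Krt19 in simple epithelia, was at 8.93, 2.55 and 6.07 TPM in NF-YAcKO and 3.39, 0.49 and 0.58 TPM in NF-YAfl/fl (edgeR FDR = 0.0847). Krt19 was highest in NF-YAfl/fl replicate 1, at 6.78 TPM. The median log2 fold change of the 8 tested keratins was 1.84. Of these, Krt14, Krt17 and Krt23 had at most 8, 3 and 1 counts in an NF-YAfl/fl library. They passed the count filter only through NF-YAcKO, which raises this median, so that it does not describe the keratins as a set.

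Of 12 epithelial and mesothelial markers, 9 were tested and 3 were called higher (Wt1, Lrrn4 and Gpm6a, taken here as mesothelial markers), and the summed level was 18.7 to 61.7 TPM in NF-YAcKO and 8.19 to 20.1 TPM in NF-YAfl/fl. The list holds Krt5, Krt14 and Krt19, which are also in the keratin list. Lrrn4 was at 19.2, 4.56 and 12.2 TPM in NF-YAcKO, in the order of the libraries by Krt8, and at 0.27, 0.13 and 0.94 TPM in NF-YAfl/fl. In NF-YAfl/fl the order was not shared, with Krt8 highest in replicate 1 and Lrrn4 highest in replicate 3. Epcam and Cdh1, which define epithelium, were at 1.04 and 1.11 TPM in NF-YAfl/fl replicate 1 and at 1.0 and 0.57 TPM in NF-YAcKO replicate 1. In the other libraries they were at most at 0.21 and 0.17 TPM. The part of such cells in the keratin values was not tested.

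**Figure D4:**
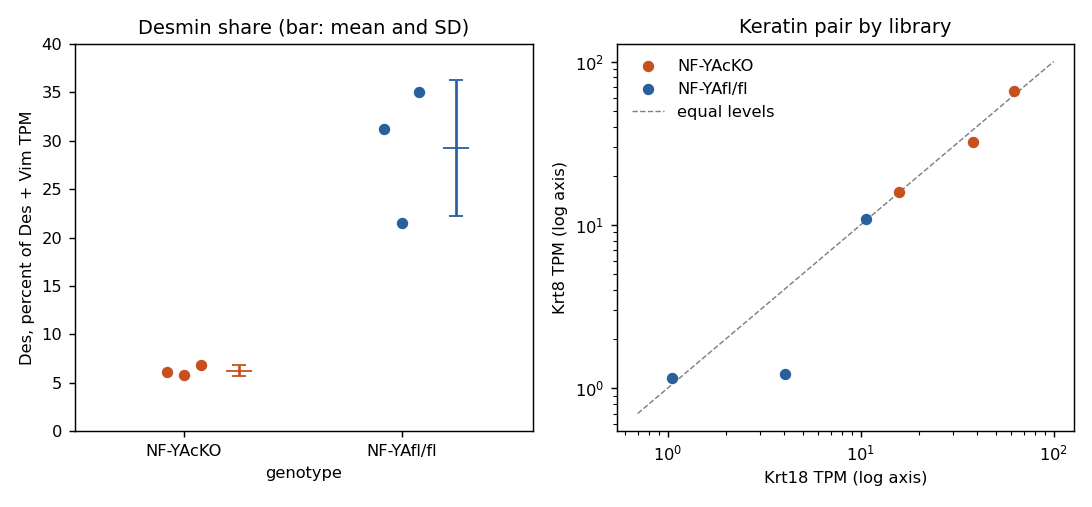
Left, Des as percent of Des plus Vim TPM in each library, with mean and SD beside the points; right, Krt8 against Krt18 TPM by library on log axes with a dashed line of equal levels. Des is at 5.76% to 6.85% in NF-YAcKO and 21.5% to 35.0% in NF-YAfl/fl, and NF-YAfl/fl replicate 2 alone lies well off the line, at a Krt8 to Krt18 ratio of 0.302.

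The order of the 8 genes per length was nearly fixed in NF-YAfl/fl and varied among the NF-YAcKO libraries. In all 3 NF-YAfl/fl libraries it ran Vim, Des, Plec, Nes, Sync, then the keratins in either order, then Synm. In NF-YAcKO Vim was first and Sync and Synm last in each library, but Des and Plec overlapped (104 to 141 and 107 to 130 TPM), as did Nes with both keratins (55.9 to 60.3 TPM for Nes, 15.8 to 66.5 for Krt8 and 15.8 to 62.6 for Krt18). Sync, above the keratins in every NF-YAfl/fl library, was below them in every NF-YAcKO library.

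The genes that bind these filaments were then counted. Among 19 partners of desmin and syncoilin, all tested, 6 were called lower and the other 13 were not called, with a median log2 fold change of -0.88. Neb, the giant thin filament protein that binds desmin at the Z-disc, was at 79.2 CPM in NF-YAcKO and 3948 CPM in NF-YAfl/fl (log2 fold change -5.64, SE 0.31, edgeR FDR = 8.86e-05). Nrap fell by 5.13, Dmd (dystrophin) by 3.22, the syncoilin partner Dtna (α-dystrobrevin) by 2.43 and Flnc (filamin C) by 2.27 on the log2 scale. For Dmd the value was -1.64 in limma on log2(TPM + 1), with the call kept. The call of Flnc was lost without NF-YAcKO replicate 2 (FDR = 0.0117, range 1.68e-15 to 0.0117), and Mtm1 (myotubularin), at -1.06, lost its call in 4 of the 6 fits that left out a library. The small heat shock proteins that chaperone desmin were below the thresholds, Cryab at -0.54 (FDR = 0.0214) and Hspb1 at -0.88 (FDR = 0.014), and Itgb1, the β1 integrin, was at -0.01.

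Of 17 other plakins and desmosomal proteins, 14 were tested and 2 were called lower. Macf1, which links actin to microtubules, was at 796 CPM in NF-YAcKO and 3647 CPM in NF-YAfl/fl (log2 fold change -2.20, SE 0.16, edgeR FDR = 0.000271) and kept its call in all 14 alternatives. Eppk1 (epiplakin) was called at -1.61 and lost the call without NF-YAcKO replicate 1, NF-YAcKO replicate 2 or NF-YAfl/fl replicate 1. Dst (dystonin), another large plakin, was at -0.95 (FDR = 0.00115), under the fold threshold like Plec itself. Dsp (desmoplakin) and the desmosomal cadherin Dsg2 stayed at or below 0.54 TPM in every library. The median over the 14 was -0.09.

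Of 8 other filament genes, those of type III and IV together with the family orphans Iffo1 and Iffo2, 6 were tested. Iffo1, which encodes an intermediate filament family orphan of the nucleus, was at 27.4 CPM in NF-YAcKO and 212 CPM in NF-YAfl/fl (log2 fold change -2.96, SE 0.25, edgeR FDR = 0.000413), a larger change than that of Des. Peripherin and the neurofilament genes Nefl, Nefm and Nefh were at or below 1.09 TPM in every library and were not called.

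**Figure D5:**
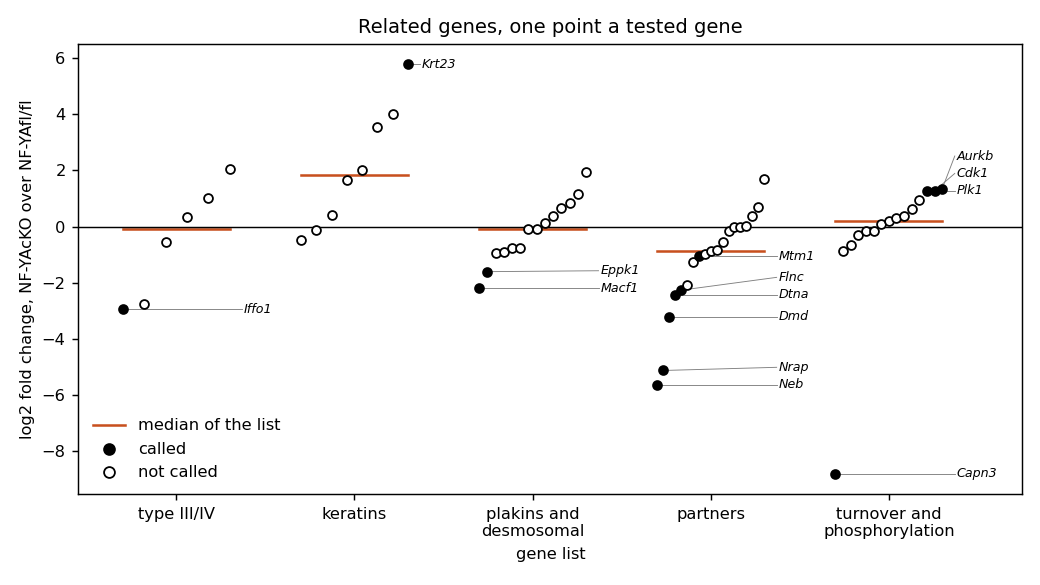
Log2 fold change, NF-YAcKO over NF-YAfl/fl, of each tested gene in 5 lists related to the filaments, with filled points and names for called genes and a bar at each list's median. The called partners and plakins all lie below 0, from Mtm1 at -1.06 to Neb at -5.64, while the turnover list holds calls on both sides.

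The genes whose profiles lay nearest to each member were found over the 6 libraries, among the same 9457 genes. Des had Jph1 (junctophilin 1, of the triad junction), Setbp1 and Nav2 nearest, with differences of 0.091, 0.0939 and 0.104 on the centred log2 scale. Nes had Chrnd (a subunit of the acetylcholine receptor), Pbxip1 and Plekhg5, Sync had Rbm24 and Rbm20, both splicing regulators of muscle, and Zfp568, and Plec had Tnrc6b, Utrn (utrophin) and Sik1, the last at 0.0723. Vim had Cep135, Calr and Elk3 nearest (0.0387 to 0.0506), and Synm had Bcorl1 and Natd1 (0.0621 and 0.0648). Among the members, Synm and Plec were the closest pair (0.153), and Des lay nearer to Nes (0.302) than to Vim (1.34). These distances, and those of the keratins above, include the difference between the genotypes. Genes of similar log2 fold change therefore lie near each other, and shared regulation was not tested.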

How the data were processed

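The libraries were grouped by the genotype in the labels. The authors aligned reads with Bowtie2 to the mouse transcriptome (mm10) and quantified them with RSEM, as the labels and Methods state. Per gene and per transcript, the deposited expected counts are unscaled, and a read that matches several transcripts is divided among them. RSEM also gave the deposited TPM, which corrects for effective length and sums to the same value in each library. The deposited isoform percent is a transcript's share of its gene's TPM. Transcript models and gene coordinates were taken from GENCODE (GRCm38, the build mm10), promoters from RefSeq (GRCm38.p6).

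Expected counts were rounded to whole numbers. Genes above 10 counts in 2 or more libraries were tested with edgeR 4.0.16 (TMM, quasi-likelihood test, Benjamini-Hochberg adjustment) in R 4.3.3, over all genes. The thresholds of the Methods were used for a call, an FDR below 0.01 with an absolute log2 fold change over 1. The Methods applied them to DESeq2, which stands here among the alternatives and called Krt18 higher. Shares and ratios were compared by exact permutation tests in scipy 1.17.1. The labels do not say whether 2 libraries could share an animal, so p-values measure the spread between these samples. A count of 3 equals 0.0705 to 0.115 CPM.

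The members and lists were chosen with earlier results of these data known. Named genes were the members, from each list those of highest mean TPM and, in the filament lists, the called genes, and the 3 genes of nearest profile for each member, with Xist, Ddx3y and Nfya. Krt23, Lrrn4, Wt1, Gpm6a, Dsp, Dsg2, Epcam, Cdh1 and the neurofilament genes were added after their values were seen. Among the list genes and the genes of nearest profile, some items are not reported here. The 14 alternatives were the DESeq2 1.42.0 test, edgeR with DESeq2 size factors, no filter, limma 3.58.1 on log2(TPM + 1) and log2(TPM + 0.1), an FDR limit of 0.05, glmTreat (edgeR's test that a change exceeds 1 on the log2 scale), the replicate number as a block, and leaving out each library.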

Additional observations from a re-analysis of the deposited data

How the results depend on the processing

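No member changed sign under any of the 14 alternatives, and Des, Vim and Synm stayed on their side of the call in all of them. Against 806 genes called higher and 1331 lower, limma on log2(TPM + 1) gave 231 and 704, limma on log2(TPM + 0.1) gave 361 higher, glmTreat gave 97 and 510, and an FDR under 0.05 gave 2025 lower. Leaving out a library gave 177 to 890 higher and 523 to 1684 lower. Of the members, 1 was called higher by DESeq2 (Krt18, log2 fold change 2.93), 2 at an FDR under 0.05 (Krt18 at 2.97 and Krt8 at 3.15) and 0 to 1 with a library left out. Those called lower were 1 under glmTreat, where Nes at -1.66 and Sync at -1.26 missed the threshold, and 1 to 3 with a library left out. Leaving out a library moved Nes between -1.85 and -1.46, Sync between -1.47 and -0.99, Plec between -1.03 and -0.86 and Krt8 between 2.51 and 5.02. Plec was called by limma at -1.02 (pseudocount 1) and -1.03 (pseudocount 0.1). With CPM in place of TPM, which leaves length out, the Des share differed by -31.2 percentage points in place of -23.0.

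The replicate numbers did not pair the samples. Deviations of same-numbered libraries had correlations of 0.209, -0.103 and 0.0512 across genes. With the number as a replicate block, 625 genes were called higher and 947 lower, 1 member higher (Krt8, log2 fold change 3.72) and 2 lower, with Sync at -1.23 not called. It changed no other member's call.

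Added after the data were seen, the share of Plec with the 15-base exon differed by -10.8 percentage points, and kept its direction by expected counts and with each library left out. The 3 cultures a genotype limit the tests of shares, for which no p under 0.1 was possible.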

Other observations

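Genes that take filaments apart or phosphorylate them were listed too. Of 15 such genes, all tested, 3 were called higher and 1 lower in NF-YAcKO, with a median log2 fold change of 0.20. The called higher genes are the mitotic kinases known to phosphorylate vimentin, Aurkb (57.9 CPM in NF-YAcKO and 22.6 CPM in NF-YAfl/fl, log2 fold change 1.36), Cdk1 (161 and 66.4 CPM, 1.28) and Plk1 (65.6 and 27.1 CPM, 1.27), with edgeR FDRs of 0.00417, 0.00281 and 0.00736. Each lost its call in 4 of the 6 fits that left out a library, those without NF-YAcKO replicate 1, 2 or 3 or without NF-YAfl/fl replicate 1. Their FDRs reached 0.203, 0.234 and 0.371 over the alternatives.

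The gene called lower was Capn3, the muscle calpain. It had 2 to 7 counts in the NF-YAcKO libraries and 835 to 2203 in the NF-YAfl/fl libraries. Capn2, the widely expressed calpain, was at 0.29 (FDR = 0.198), and Ppp1ca, a phosphatase subunit, at 0.62 (FDR = 0.00175), under the fold threshold.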
